A study of Oikopleura dioica with 8 samples.

Results

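*Oikopleura dioica*, a small planktonic tunicate, stops growing and delays maturation when it is kept crowded and short of food, a state called stasis. Ribosome loading in stasis was measured by setting ribosome protected fragments (RPF) against total RNA, gene model by gene model, in whole animals on day 7. The 4 stasis libraries of the 8 in the series were used, an RPF library and a total RNA library for each of 2 biological replicates, and 14595 of the 17212 gene models had the 100 reads over all 8 libraries that the study required. The animals grew normally until day 3, then stayed at the density of day 2 and received only their evening food, and all 4 libraries came from animals kept this way. Each sample was a pool of animals, and total RNA came from part of the pool, so the library pair of a replicate shared a collection but not necessarily each animal. No strain, sex or genotype is given in the labels. In whole animals, fewer cells of a type and less RNA per cell cannot be told apart.

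Ribosome profiling digests the mRNA that ribosomes do not cover and sequences the stretches they shield. The RPF reads of a gene, taken relative to its total RNA reads, are its translational efficiency (TE). In mammals, mRNAs for ribosomal proteins and translation factors lose ribosomes when nutrients are short. These mRNAs begin with a pyrimidine tract, the terminal oligopyrimidine (TOP) motif, which places them under control of the kinase mTOR. In *O. dioica* most of them instead carry a spliced leader (SL), a short RNA joined to the 5′ end of mRNAs by trans-splicing.

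The RPF libraries were much shallower than the total RNA libraries, and replicate 2 was shallower than replicate 1. Total RNA gave 13.9 M and 13.0 M reads (replicates 1 and 2), and RPF gave 1.49 M and 0.262 M. In RPF replicate 1, 988 of the gene models tested had no read (6.77%), and in RPF replicate 2 the number was 5611 (38.4%). At least 10 reads were found for 9015 gene models in RPF replicate 1 and for 2263 in RPF replicate 2. Values below are given as reads, or as reads scaled to a common library size with TMM (trimmed mean of M values, which sets the scale of each library from the bulk of its gene models), called CPM. A single read was worth 0.0477 and 0.0538 CPM in total RNA, and 0.864 and 6.40 CPM in RPF. A ratio of 1 marks equal CPM in both assays, not an absolute number of ribosomes, and the median gene model had a ratio of 0.864 in replicate 1 and 0.474 in replicate 2.

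A large part of the RPF reads fell on a few gene models that held only a small share of total RNA. Of the 7 gene models that held over 1% of an RPF library, 4 (GSOIDT00008149001, GSOIDT00007125001, GSOIDT00004011001 and GSOIDT00007124001) together took 18.5% of the RPF reads of replicate 1 and 55.9% of those of replicate 2, but 0.0245% and 0.0241% of total RNA. None of the 4 had a name or annotation in the tables used here. GSOIDT00008149001 had 1531 and 1319 total RNA reads (replicates 1 and 2) and 243806 and 93147 RPF reads, or 16.4% and 35.6% of the RPF libraries. GSOIDT00007125001 had 988 and 910 total RNA reads and 20225 and 38668 RPF reads, or 1.36% and 14.8% of the RPF libraries. For both models the RPF values lay far above total RNA in each replicate, and the replicates differed in how far. GSOIDT00007124001, whose identifier is next to that of GSOIDT00007125001, had 175 and 110 total RNA reads and 2365 and 3347 RPF reads. GSOIDT00004011001 had 715 and 808 total RNA reads against 8970 and 11122 RPF reads.

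**Figure D1:**
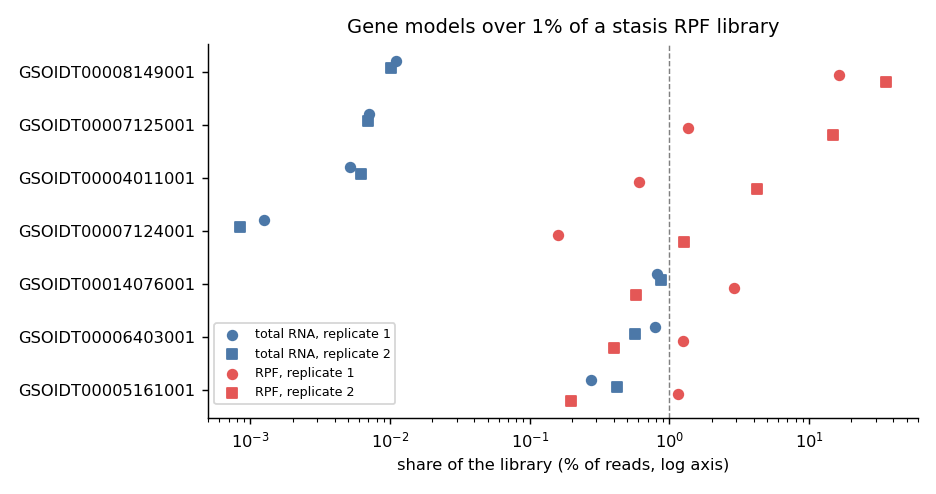
Share of each stasis library, in percent of reads on a log axis, taken by the 7 gene models with over 1% of an RPF library (circles replicate 1, squares replicate 2, blue total RNA, red RPF). The top 4 models lie under 0.02% of total RNA and hold 18.5% and 55.9% of the RPF reads together, and the other 3 hold 1.88% and 1.87% of total RNA.

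The 4 models passed the test, with a log2 RPF/total RNA of 12.45 ± 2.41 (standard error, SE) for GSOIDT00008149001, 11.43 ± 2.10 for GSOIDT00007125001, 10.68 ± 1.46 for GSOIDT00007124001 and 9.99 ± 1.59 for GSOIDT00004011001 (edgeR adjusted p = 0.031, 0.027, 0.014 and 0.019, n = 2 per assay). With the replicate number as a block, GSOIDT00007124001 kept its call (adjusted p = 3.8e-04). The block gave adjusted p = 0.77 for GSOIDT00008149001, 0.64 for GSOIDT00007125001 and 0.16 for GSOIDT00004011001. The other 3 models over 1% (GSOIDT00014076001, GSOIDT00006403001 and GSOIDT00005161001) were abundant in total RNA as well, at 38087 to 114158 reads per library. GSOIDT00014076001 had 114158 and 114027 total RNA reads and 42880 and 1503 RPF reads, a ratio of 6.80 in replicate 1 and 1.57 in replicate 2, and was not called (log2 2.01 ± 0.94, edgeR adjusted p = 0.20). All 3 had both RPF values above both total RNA values, with the higher ratio in replicate 1. What kind of RNA the reads on the first 4 models came from was not tested.

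Across all gene models, RPF differed from total RNA in 406, with RPF higher in 241 (1.65%) and lower in 165 (1.13%) by edgeR's quasi-likelihood test at an adjusted p under 0.05. At an unadjusted p under 0.05 the numbers were 1549 (10.6%) and 2380 (16.3%). The smallest adjusted p was 0.0037. The median fitted log2 ratio was -0.21, with quartiles of -1.18 and 0.60. Both RPF values lay above both total RNA values in 2410 gene models (16.5%) and below them in 5740 (39.3%). Of the called models, 211 of the 241 higher and all 165 lower had groups that did not overlap.

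The count of calls rested on few libraries and on the fit. With the replicate block, 76 models were higher (0.521%) and 20 lower (0.137%), of which 67 and 17 were among those called without it. DESeq2 called 195 higher (1.7% of the 11482 models it adjusted) and 86 lower (0.749%), sharing 155 and 85. limma-voom called 4 higher and 0 lower, with 1504 and 1914 at an unadjusted p under 0.05. Scaling to library totals in place of TMM lowered the median log2 ratio by 1.01 and gave 121 higher and 2967 lower.

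Calls depended on how deeply a model was read. No model under 303 mean total RNA reads was called lower, and the 165 lower calls had a median of 738. In these models RPF replicate 2 held no read in 85 and RPF replicate 1 and 2 both held none in 15. Of the models with fewer than 50 mean total RNA reads, 82.8% had no read in RPF replicate 2, and 67 were called higher and 0 lower. The 241 higher calls had a median of 147 mean total RNA reads. The RPF/total RNA ratio was larger in replicate 1 in 166 of them and larger in replicate 2 in 75, and 160 had 10 or fewer reads in RPF replicate 2. Of all models tested, 826 had no RPF read in either replicate.

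**Figure D2:**
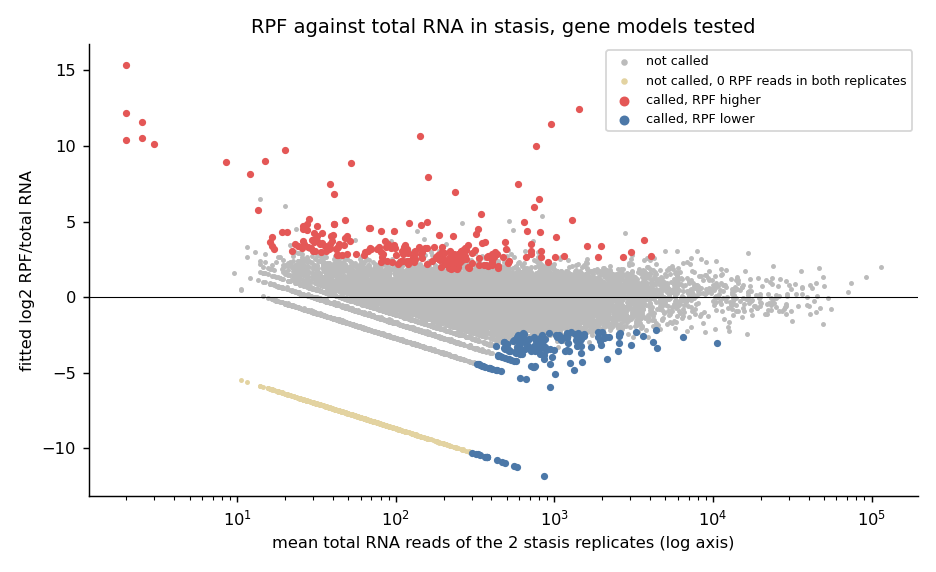
Fitted log2 RPF/total RNA of the 14595 gene models against their mean total RNA reads in stasis (log axis), with the 241 models called higher in red and the 165 called lower in blue. Diagonal lines of points are models with 0, 1 or a few RPF reads, whose fitted ratio follows from their total RNA reads, and lower calls begin at 303 mean reads.

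The replicates were compared over 2214 gene models, those with 10 reads or more in each of the 4 libraries. Across these genes, which are not independent replicates, the log2 ratio of replicate 1 correlated with that of replicate 2 at r = 0.51 (Pearson) and rho = 0.42 (Spearman). The median log2 ratio was 0.62 in replicate 1 and 0.37 in replicate 2, both above 0, in a set that the filter had limited by RPF reads. Why these medians were above 0 was not tested. The ratio was above 1 in both replicates for 1116 models, below 1 in both for 384, and on different sides for 714. It differed by 2-fold or more between replicates in 987 models (44.6%). Only 81 called models met this filter, 79 higher and 2 lower.

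**Figure D3:**
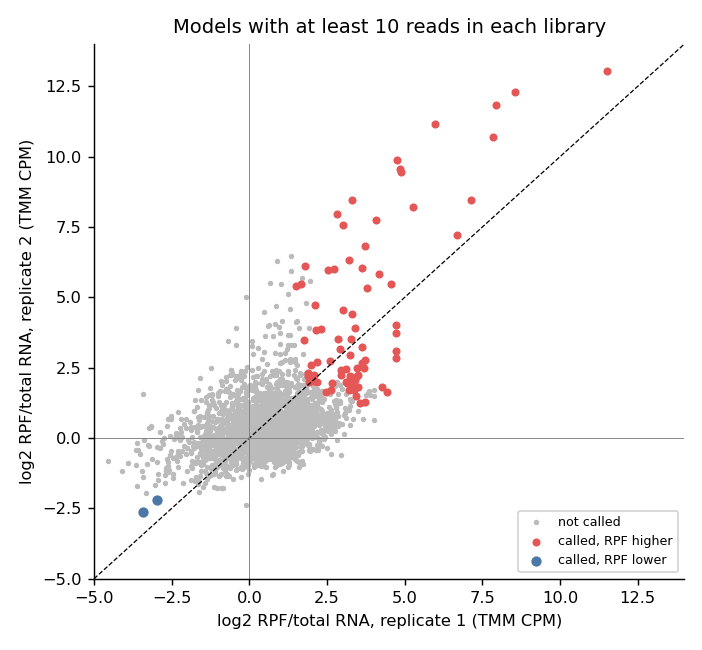
Log2 RPF/total RNA (TMM CPM) in replicate 1 (horizontal axis) and replicate 2 (vertical axis) for 2214 models with 10 or more reads in each library, with the line of equal ratios dashed. The 8 models with the highest fitted ratios, in red, lie above the line, with the larger ratio in replicate 2, and the 2 models called lower, in blue, are below 0 in both replicates.

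The highest ratios among these models belonged to gene models without annotation. After the 4 models above came GSOIDT00017023001, with 26 and 14 total RNA reads and 90 and 266 RPF reads, a log2 ratio of 9.75 ± 1.44 (edgeR adjusted p = 0.017). GSOIDT00014692001 had 14 and 16 total RNA reads and 21 and 126 RPF reads (8.99 ± 1.54, adjusted p = 0.023). GSOIDT00011781001 and GSOIDT00009521001 followed, at 8.87 ± 1.56 and 8.15 ± 1.26 (adjusted p = 0.025 and 0.018). In all 8 models the ratio was higher in replicate 2 than in replicate 1, and both RPF values exceeded both total RNA values. The largest fitted log2 ratio of all models tested lay outside this filter, at 15.39 ± 1.755 for GSOIDT00007127001 (edgeR adjusted p = 0.0068). That model had only 1 and 3 total RNA reads, against 774 and 1437 RPF reads. Its identifier is near those of GSOIDT00007124001 and GSOIDT00007125001.

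Only 2 models with at least 10 reads in each library were called lower, and neither had an annotation. GSOIDT00008748001 had 8196 and 13084 total RNA reads and 42 and 18 RPF reads, which gave ratios of 0.0927 and 0.164 and a log2 ratio of -3.01 ± 0.68 (edgeR adjusted p = 0.048, with the block 0.0056). GSOIDT00015361001 had 6878 and 6028 total RNA reads and 48 and 11 RPF reads, ratios of 0.126 and 0.217, and a log2 ratio of -2.64 ± 0.54 (adjusted p = 0.035, with the block 0.022). The next by the ratio in their less extreme replicate were GSOIDT00015055001, GSOIDT00005048001 and GSOIDT00009595001, at ratios of 0.262, 0.309 and 0.316 in that replicate, and none of these passed the test, although GSOIDT00005048001 did with the block (adjusted p = 0.071, with the block 0.024). Nor did GSOIDT00013611001, GSOIDT00013457001 and GSOIDT00008878001, at 0.322, 0.326 and 0.331, pass it.

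The gene models annotated as muscle proteins had a higher median RPF/total RNA than all models tested. *O. dioica* swims and pumps water through its house with a muscular tail, and the muscle list held 21 tested models annotated as troponin, tropomyosin, myosin chains, myosin-binding protein, actin and other muscle proteins. This list, like those of house, cilium, digestive and other annotated proteins below, was drawn from the part of the study's annotation table used here, whose rows stand at the top of a ranking by response to Torin 1, an mTOR inhibitor, in another experiment. Its members are therefore no sample of all muscle genes. Of the 21, 6 were called higher (28.6%, against 1.65% of all models) and 0 lower, and 11 and 0 had an unadjusted p under 0.05. The median log2 ratio was 1.06, against -0.21 for all models, and 19 of the 21 were above 0 (90.5%, against 43.1% of all models). Both RPF values exceeded both total RNA values in 14 (66.7%, against 16.5% of all models) and lay below them in 0. The median RPF/total RNA ratio was 2.32 in replicate 1 and 1.80 in replicate 2.

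The largest ratio of the list was that of GSOIDT00016817001, annotated as a chain of the rigor crossbridge, the bond of myosin to actin in muscle. It had 172 and 70 total RNA reads and 225 and 26 RPF reads, or 8.21 and 3.76 CPM against 194 and 167 CPM. Both RPF values were more than 20 times the total RNA value of the same replicate, at ratios of 23.7 and 44.2, and the log2 ratio was 4.92 ± 0.58 (edgeR adjusted p = 0.0078, with the block 1.6e-08). A model of cardiac myosin-binding protein C, which braces the thick filament, was also called, with the lowest fitted ratio of the called muscle models (GSOIDT00008618001). It had 499 and 385 total RNA reads and 103 and 15 RPF reads, ratios of 3.74 and 4.64 and a log2 ratio of 2.04 ± 0.44 (adjusted p = 0.042, with the block 0.25).

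The other 4 called muscle models, named here after their values were seen, had few reads in RPF replicate 2. Alpha actin, the main protein of the thin filament (GSOIDT00000757001), had 59 and 40 total RNA reads and 60 and 1 RPF reads (log2 4.04 ± 0.56, adjusted p = 0.014). Fast troponin, part of the calcium switch of the thin filament (GSOIDT00007476001), had 111 and 51 total RNA reads and 45 and 1 RPF reads (2.97 ± 0.59, adjusted p = 0.033). For both, the RPF value of replicate 2 was above total RNA but rested on a single read. Ankyrin repeat domain 2, a stretch-responsive muscle protein in vertebrates (GSOIDT00011417001), had 395 and 239 total RNA reads and 239 and 6 RPF reads (3.09 ± 0.66, adjusted p = 0.040). The tropomyosin alpha-1 chain model GSOIDT00006160001 had 73 and 53 total RNA reads and 32 and 0 RPF reads (2.80 ± 0.64, adjusted p = 0.048), so its groups overlapped. None of these 4 was called with the replicate block.

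Myosin heavy chain, the motor of the thick filament, showed smaller ratios. The model with the most total RNA, GSOIDT00010986001, had 10125 and 10127 total RNA reads and 854 and 108 RPF reads, ratios of 1.53 and 1.27 and a log2 ratio of 0.48 ± 0.49 (edgeR adjusted p = 0.56). GSOIDT00010985001, with the adjacent identifier and the same annotation, had the lowest ratio of the list, at 1348 and 1122 total RNA reads and 40 and 13 RPF reads (-0.28 ± 0.54, adjusted p = 0.77). Its ratio was 0.537 in replicate 1 and 1.38 in replicate 2, so the replicates fell on different sides of 1. Whether the models share sequence, and how reads that match both were counted, was not tested. With the replicate block 1 muscle model was called (GSOIDT00016817001), with DESeq2 3, with limma-voom 0 and with library totals 2, where the list's median log2 ratio was 0.03 and that of all models -1.22. Leaving out each library in turn gave 0 to 12 muscle models called higher, with 12 when RPF replicate 2 was left out and 0 when RPF replicate 1 was. In a fit of models with 10 or more reads in each library, which kept 10 of the list, the median was 0.13 and 1 was called.

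**Figure D4:**
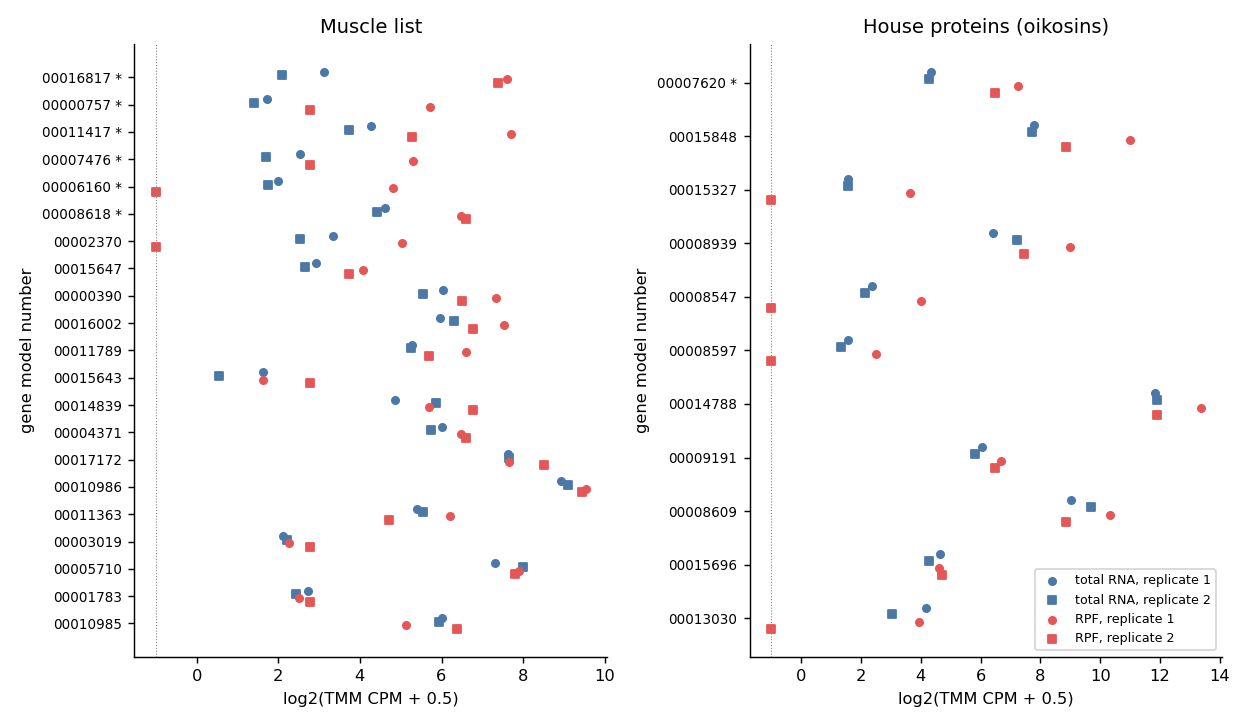
TMM CPM of every tested muscle and house protein model in the 4 stasis libraries, as log2(CPM + 0.5), ordered by fitted ratio (blue total RNA, red RPF, circles replicate 1, squares replicate 2), with called models starred and 0 reads on the dotted line. In the muscle list both RPF values lie to the right of both total RNA values for 14 of 21 models, and in the house protein list for 4 of 11.

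The house protein list showed a similar median but a less even pair of replicates. Oikosins are secreted by the epithelium of the trunk and build the filter house in which the animal feeds. Of 11 tested oikosin models, 1 was called higher (9.09%, against 1.65% of all models) and 0 lower, and 5 had RPF higher at an unadjusted p under 0.05 (10.6% of all models). The log2 ratio was above 0 in 10 (43.1% of all models), with a median of 0.99. The median ratio was 2.89 in replicate 1 and 1.00 in replicate 2, and both RPF values exceeded both total RNA values in 4 models (36.4%, against 16.5% of all models). The called model, oikosin 7c (GSOIDT00007620001), had 414 and 349 total RNA reads and 176 and 14 RPF reads, ratios of 7.69 and 4.78 and a log2 ratio of 2.71 ± 0.48 (edgeR adjusted p = 0.025, with the block 0.039, and with library totals 0.054). The most abundant, an oikosin-like model (GSOIDT00014788001), had 76469 and 71490 total RNA reads and 12199 and 600 RPF reads. Its ratio was 2.89 in replicate 1 and 1.00 in replicate 2, and it was not called (0.94 ± 0.74, adjusted p = 0.43). The lowest ratio was that of oikosin 6b (GSOIDT00013030001), with 369 and 144 total RNA reads, 17 and 0 RPF reads and a log2 ratio of -0.05 ± 0.72 (adjusted p = 0.97).

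Ribosomal protein models had a median log2 ratio somewhat under that of all models, but not in each replicate. No ribosomal protein model of 72 was called in either direction by edgeR (unadjusted p under 0.05 in 3 higher and 6 lower, against 10.6% and 16.3% of all models), by DESeq2 or with the replicate block. For the 46 models of the large subunit the median log2 ratio was -0.31 (quartiles -0.90 and 0.00), and for the 26 of the small subunit it was -0.58 (-0.81 and -0.10), against -0.21 for all models. The log2 ratio was below 0 in 54 of the 72 (75%, against 56.9% of all models). Both RPF values lay below both total RNA values in 25 of 46 (54.3%) and 18 of 26 (69.2%), against 39.3% of all models, and above them in 3 and 2. The median ratio was 0.773 and 0.731 in replicate 1 (large and small subunit), under the 0.864 of all models, and 0.675 and 0.682 in replicate 2, above their 0.474. Summed over the list, the RPF/total RNA ratio was 0.800 and 0.720 (replicates 1 and 2) for the large subunit and 0.800 and 0.685 for the small subunit, in each case on 2907 RPF reads or more. The all-model median of replicate 2 included 5611 models with no RPF read (38.4%), against 1 of the 72 ribosomal models. The 695 models with 3000 or more mean total RNA reads, 0% of them without a read in RPF replicate 2, had a median log2 ratio of 0.18. Whether the lists lay above or below the median model thus depended on the libraries and on the models compared. Without RPF replicate 1 the median of the large subunit was 0.70 above that of all models, and with at least 10 reads required in each library it was 0.87 below it.

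The 5 ribosomal proteins with the highest mean CPM in total RNA, RPL19, RPLP0, RPL3, RPL8 and RPS6, had ratios under 1 in both replicates. RPL19 (GSOIDT00013614001) had 59387 and 51813 total RNA reads and 1875 and 269 RPF reads, ratios of 0.571 and 0.618 and a log2 ratio of -0.75 ± 0.58 (edgeR adjusted p = 0.42). RPLP0 (GSOIDT00012159001), the base of the ribosomal stalk, had 44251 and 45199 total RNA reads and 897 and 232 RPF reads, with ratios further apart, 0.367 and 0.611 (-1.01 ± 0.60, adjusted p = 0.29). RPS6 (GSOIDT00015546001), the ribosomal protein phosphorylated downstream of mTOR, had 38159 and 40490 total RNA reads and 1645 and 215 RPF reads, ratios of 0.780 and 0.632 and a log2 ratio of -0.51 ± 0.56 (adjusted p = 0.58). RPL3, RPL22, RPL23, RPL36AL and RPS7, named after their values were seen, all had ratios between 0.393 and 0.491 in each replicate, and their log2 ratios of -1.32 to -1.11 did not pass the test (adjusted p from 0.13 to 0.23).

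Apart from an RPL32 model with no RPF read, models of RPL7A and RPLP1 stood at the ends of the large subunit list. RPL7A (GSOIDT00010732001) had 1272 and 836 total RNA reads and 140 and 30 RPF reads, ratios of 1.99 and 4.27 (log2 1.52 ± 0.48, edgeR adjusted p = 0.093). RPLP1, a protein of the ribosomal stalk (GSOIDT00000922001), had 10152 and 10403 total RNA reads and 85 and 29 RPF reads, ratios of 0.152 and 0.332 (-2.09 ± 0.58, adjusted p = 0.072). In neither of these models did the groups overlap. Another RPLP1 model (GSOIDT00000470001) had 12913 and 13905 total RNA reads and 482 and 119 RPF reads. Its ratios were 0.676 and 1.02, its groups overlapped and it was not called (-0.22 ± 0.53, edgeR adjusted p = 0.82). The small subunit ran from RPS29 (GSOIDT00009155001, ratios of 0.183 and 0.608, log2 -1.48 ± 0.67, adjusted p = 0.19) to a model matched to the human entry RPS15P5 (GSOIDT00016058001, ratios of 4.15 and 1.62, 1.37 ± 0.52, adjusted p = 0.13).

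The RPL32 orthologs, of which there are 2, had opposite readings. The model with a spliced leader (GSOIDT00006992001) had 608 and 617 total RNA reads and 77 and 12 RPF reads, ratios of 2.29 and 2.32 and a log2 ratio of 1.18 ± 0.44 (edgeR adjusted p = 0.13). The model without it (GSOIDT00006994001) had 219 and 171 total RNA reads and 0 RPF reads in both replicates. With a floor of 3 reads over both RPF libraries its RPF was at least 4.32-fold lower than its total RNA, and it was not called (adjusted p = 0.069). The EEF1B2 orthologs, elongation factor subunits, also included a model with no RPF read (GSOIDT00004766001, 37 and 73 total RNA reads, at least 1.22-fold lower). The second EEF1B2 model (GSOIDT00014951001) had 1231 and 1397 total RNA reads and 58 and 3 RPF reads, ratios of 0.853 and 0.256. How reads that match both copies were counted is not given in the sources used here.

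**Figure D5:**
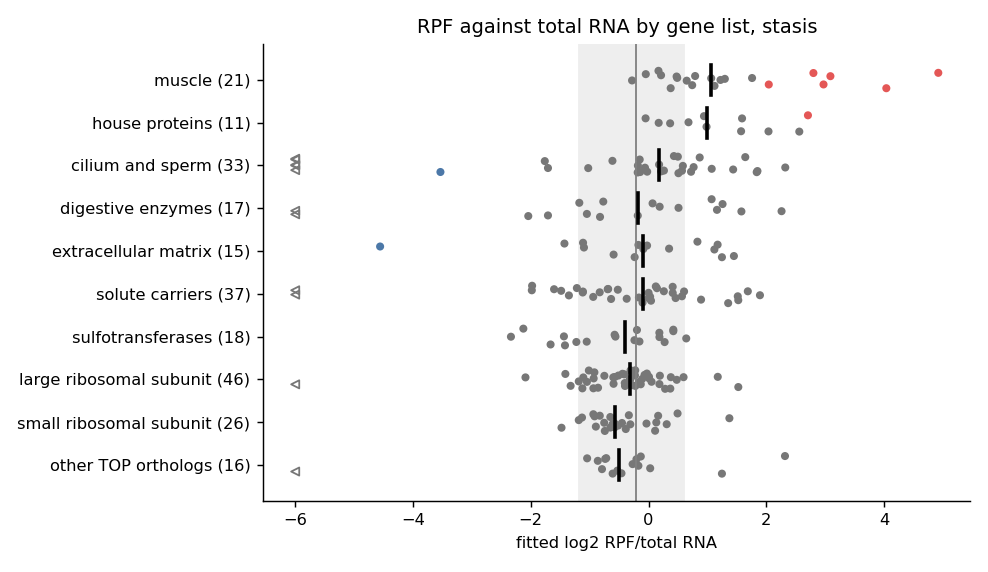
Fitted log2 RPF/total RNA of the members of each gene list (number tested in brackets), with the list's median as a black bar, the median of all gene models as a grey line and their quartiles as a grey band. Red and blue points were called higher and lower, and open triangles at the left edge mark members with 0 RPF reads in both replicates, whose fitted value is not to scale. The muscle and house protein medians (1.06 and 0.99) lie above the band, which ends at 0.60, and the ribosomal medians lie within it.

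Of the 16 other TOP orthologs none was called by edgeR or DESeq2 (unadjusted p under 0.05 in 2 higher and 0 lower), and the median log2 ratio was -0.49. The translation factors did not share a direction. EEF1A1, which brings aminoacyl-tRNA to the ribosome (GSOIDT00006619001), had 4992 and 4487 total RNA reads and 497 and 112 RPF reads, ratios of 1.80 and 2.97 (log2 1.25 ± 0.51, edgeR adjusted p = 0.16). EEF2, which moves the ribosome along the mRNA (GSOIDT00003020001), had 36304 and 41353 total RNA reads and 2606 and 278 RPF reads, ratios of 1.30 and 0.801 (0.03 ± 0.57, adjusted p = 0.98). EF1 delta (GSOIDT00003404001) had ratios of 0.937 and 0.396, on 55 and 3 RPF reads. EEF1A1 lay above total RNA in both replicates, EEF2 overlapped it and EF1 delta lay below it, and none passed the test.

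Further TOP orthologs outside the ribosome included both the highest ratio of the TOP list and several under 1. VIM, an intermediate filament protein whose model is also annotated as desmin (GSOIDT00012325001), had 2025 and 1157 total RNA reads and 681 and 29 RPF reads, ratios of 6.09 and 2.99 (log2 2.32 ± 0.61, edgeR adjusted p = 0.064). TPT1, the translationally controlled tumour protein (GSOIDT00000824001), had 10139 and 10604 total RNA reads and 212 and 64 RPF reads, ratios of 0.378 and 0.719 (-0.86 ± 0.55, adjusted p = 0.33). NPM1, a nucleolar chaperone of ribosome assembly (GSOIDT00000934001), had ratios of 0.508 and 0.790 (-0.72 ± 0.49, adjusted p = 0.36). PABPC1, the poly(A)-binding protein (GSOIDT00001070001), had ratios of 1.10 and 0.642, and GNB2L1, or RACK1, a scaffold on the small subunit (GSOIDT00007647001), had 0.670 and 0.772. For PABPC1 and GNB2L1 the RPF and total RNA values overlapped.

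No TOP ortholog was called, with or without a spliced leader. The 79 models with a spliced leader had a median log2 ratio of -0.40, and the 9 without had -0.93. An unadjusted p under 0.05 was found in 5 higher and 4 lower with it, and in 0 and 2 without (10.6% and 16.3% of all models). Both medians were under the -0.21 of all models, but their place relative to all models depended on the libraries. In replicate 1 the median ratio was 0.768 with a spliced leader and 0.546 without, against 0.864 for all models. In replicate 2 the median ratio was 0.717 with a spliced leader and 0.485 without, against 0.474 for all models. Of all models, 38.4% had no read in RPF replicate 2. Relative to all models, the median log2 ratio ran from -0.96 to 0.70 with a spliced leader and from -1.49 to 0.11 without over the alternatives run, with the highest values when RPF replicate 1 was left out. Summed over each class, the ratio was 0.819 and 0.726 with a spliced leader and 0.832 and 0.637 without, so the summed ratios were much closer than the medians. The difference between the classes was not tested. The model without a spliced leader and with the most total RNA, RPS4X (GSOIDT00016652001), had ratios of 1.18 and 0.808. RPS9 (GSOIDT00001641001) had the highest ratio of that class, at 1.06 and 1.13 (log2 0.13 ± 0.52, edgeR adjusted p = 0.89).

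Spliced leader and presence in oocytes are also annotated for the rows from which the muscle list was drawn, which are no sample of all genes. The study defined presence in oocytes from oocyte samples, not from the animals in stasis. The 195 tested models that are present in oocytes and lack a spliced leader had the lowest median log2 ratio, -0.95. Their median ratio was 0.525 in replicate 1 and 0.296 in replicate 2, where 91 of them had no RPF read. Of the 195, 1 was called higher (0.513%) and 3 lower (1.54%), against 1.65% and 1.13% of all models. The 171 that are present in oocytes and carry a spliced leader had -0.52, with 0 higher and 6 lower (3.51%, against 1.13% of all models). Models absent from oocytes had medians of 0.00 without a spliced leader (1233 models) and -0.11 with one (254 models). Called were 19 higher (1.54%) and 11 lower (0.892%) without it, and 3 higher (1.18%) and 0 lower with it. Setting models with no RPF read at their bound in place of the fitted value moved the median of the oocyte class without a spliced leader to -0.68 and left the order of the 4 classes as it was. Other measures changed the order. Summed over the class, the ratio was 1.94 and 0.955 (replicates 1 and 2) for oocyte models without a spliced leader. It was lowest, at 0.981 and 0.827, for oocyte models with one. The latter also had the highest median ratio of the 4 classes in replicate 2, 0.641.

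Genes of cilia and sperm spread widely around the median of all models. Of 33 models, 0 were called higher and 1 lower (3.03%, against 1.13% of all models), 5 had no RPF read in either replicate, and the median log2 ratio was 0.18. The call was a model of cation channel sperm associated 1, in mammals a subunit of the calcium channel of the sperm tail (GSOIDT00002324001). It had 505 and 530 total RNA reads and 3 and 0 RPF reads (-3.53 ± 0.73, edgeR adjusted p = 0.036, with the block 0.44). Rootletin, the fibre that anchors cilia (GSOIDT00010334001), had the most total RNA, 8337 and 9564 reads, with 707 and 69 RPF reads and ratios of 1.53 and 0.859. The highest ratio was that of dynein intermediate chain 3 (GSOIDT00009352001), at 94 and 116 total RNA reads and 10 and 15 RPF reads (2.32 ± 0.91, adjusted p = 0.14). The lowest fitted value belonged to a sperm-specific sodium proton exchanger (GSOIDT00004369001), which had 100 and 129 total RNA reads and no RPF read (at least 2.54-fold lower).

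The digestive enzyme list had a median close to that of all models, with members far apart. It also held models annotated as granule membrane glycoproteins. None of 17 models was called by edgeR or DESeq2. An unadjusted p under 0.05 was found in 4 higher and 3 lower (10.6% and 16.3% of all models), and the median log2 ratio was -0.18. Relative to all models the median ran from -0.25 without RPF replicate 2 to 1.04 without RPF replicate 1. Carboxyl ester lipase, which splits dietary lipids (GSOIDT00003905001), had 698 and 875 total RNA reads and 96 and 51 RPF reads, ratios of 2.49 and 6.94 (2.26 ± 0.65, edgeR adjusted p = 0.076). The most abundant, a model annotated as the secretory granule membrane glycoprotein GP2 (GSOIDT00002341001), had 8034 and 10018 total RNA reads and ratios of 2.00 and 0.999. A pancreatic triglyceride lipase model (GSOIDT00017953001) had 206 and 63 total RNA reads and no RPF read (at least 2.98-fold lower, adjusted p = 0.16).

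Some further annotated models with RPF above total RNA in both replicates did not pass the test. Pyruvate kinase, the last enzyme of glycolysis (GSOIDT00006036001), had 431 and 432 total RNA reads and 69 and 13 RPF reads, ratios of 2.90 and 3.58 (log2 1.63 ± 0.45, edgeR adjusted p = 0.070). Cubilin precursor, an uptake receptor of epithelia in vertebrates (GSOIDT00002605001), had ratios of 2.45 and 3.52 (1.53 ± 0.47, adjusted p = 0.090). Of the 4 histone models in the annotated rows used here, only histone H2A had enough reads to test (GSOIDT00012584001), at 61 and 45 total RNA reads and 8 and 3 RPF reads (1.73 ± 0.70, adjusted p = 0.15). Among the lower annotated models, transmembrane protein vc16 (GSOIDT00009643001) had ratios of 0.376 and 0.328 and cg10889 (GSOIDT00000289001) 0.0579 and 0.445. The latter was not called, although it was with the replicate block (adjusted p = 0.11, with the block 0.043).

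Several called models of known families, named here after their values were seen, were neither muscle nor house proteins. Cytochrome c, the electron carrier of the mitochondrion (GSOIDT00005670001), had 154 and 110 total RNA reads and 68 and 7 RPF reads (log2 3.05 ± 0.40, edgeR adjusted p = 0.012, with the block 0.18). Adenylate kinase 1, which balances adenine nucleotides (GSOIDT00005940001), had 214 and 164 total RNA reads and 74 and 3 RPF reads (2.45 ± 0.45, adjusted p = 0.027, with the block 0.63). The homeobox transcription factors pitx1 (GSOIDT00017253001) and iroquois 5b (GSOIDT00001122001) were also called higher, at 2.87 ± 0.43 and 3.19 ± 0.53, with 73 and 4 and with 50 and 1 RPF reads. All 4 had most of their RPF reads in replicate 1, the deeper RPF library (1.49 M against 0.262 M reads). None was called with the block.

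The clearest cases of mRNA without detected ribosomes were models that were abundant in total RNA and had no RPF read. The model with the most total RNA among them, GSOIDT00013508001, had 888 and 839 total RNA reads, was at least 19.1-fold lower in RPF and was called (edgeR adjusted p = 0.017, with the block 0.0087). GSOIDT00003642001, GSOIDT00002885001 and GSOIDT00004997001 followed, at least 12.8-, 12.2- and 10.8-fold lower (adjusted p = 0.023, 0.023 and 0.032), and lost the call with the block. An ETS family transcription factor model (GSOIDT00003117001) had 914 and 196 total RNA reads and no RPF read (at least 12.3-fold lower, adjusted p = 0.080). These bounds cover counting error only, and no RPF read says only that fewer than about 3 would have been expected at this depth.

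Annotated models called lower, again named after their values were seen, had 5 or fewer RPF reads each, and 5 of the 11 are given here. The mitochondrial DNA helicase twinkle (GSOIDT00013623001) had 480 and 454 total RNA reads and 0 RPF reads in both replicates (edgeR adjusted p = 0.027). A regulatory subunit B of a protein phosphatase (GSOIDT00010903001) had 495 and 424 total RNA reads and 1 and 0 RPF reads (log2 -4.91 ± 0.92, adjusted p = 0.028), and selenoprotein W (GSOIDT00011355001) had 437 and 427 total RNA reads and 1 and 0 RPF reads (-4.83 ± 0.93, adjusted p = 0.031). A hyperpolarization-activated cation channel (GSOIDT00011012001) had 543 and 395 total RNA reads and 2 and 0 RPF reads (-3.95 ± 0.81, adjusted p = 0.035), and claudin 19, a junction protein (GSOIDT00010604001), had 662 and 886 total RNA reads and 5 and 0 RPF reads (-3.41 ± 0.70, adjusted p = 0.035). None of these 5 was called with the replicate block.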

How the data were processed

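Ribosome protected fragments and total RNA of whole animals were sequenced on 2 flow cells, and which library ran on which is not given in the sources used here. The labels name RNAqueous and the methods RNEasy for total RNA, and Ribo-Zero for rRNA removal. The deposited values are raw read counts per gene model, which the authors made by clipping, removing rRNA and tRNA reads, mapping and counting (Bowtie2 2.1.0, TopHat2 2.0.13 and featureCounts in the submitters' processing notes). The strand setting is not given in the sources used here, nor is the genome build. No column was left unmatched, and 0 identifiers matched the RefSeq gene table, so names come from the study's supplementary tables.

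RPF and total RNA were compared with edgeR 4.0.16 (TMM, glmQLFit, glmQLFTest, R 4.3.3), with Benjamini-Hochberg adjustment over 14595 gene models at 0.05. The SE is the log2 ratio over the square root of F. Alternatives used DESeq2 1.42.0, limma 3.58.1, other scalings, filters and left-out libraries. The script was tested on simulated data. TE per replicate used RPM or TMM CPM. The members and lists were chosen with earlier results of these data known, and p-values measure the spread of 2 replicates. RPF and total RNA of 1 number came from 1 collection, so they pair, although their deviations had a correlation of 0.0081 across genes.

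Named were the 8 highest and 8 lowest ratios among called models with at least 10 reads per library and groups apart, the same among annotated models (filled by the less extreme replicate where fewer passed), models over 1% of an RPF library, the extremes and most abundant member of each list, a fixed set of TOP orthologs and the 5 most abundant models with no RPF read. Counts of RPF limit precision (0.262 to 1.49 M reads), and floors cover counting error only.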

Additional observations from a re-analysis of the deposited data

How the results depend on the processing

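The number of calls depended on the fit. None of the 76 named models reversed while called, but many were picked for their ratios or calls in these data. The absence of reversals is therefore no test of direction. Among named models not called, the sign changed in some and held in others. With library totals the log2 ratio went from 0.94 to -0.06 for GSOIDT00014788001 and from 0.48 to -0.60 for GSOIDT00010986001. Against 241 higher and 165 lower, library totals gave 121 and 2967, limma-voom 4 and 0, no filter 376 and 404, at least 10 reads in each library 6 and 0 (211 and 287 at an unadjusted p under 0.05), all 8 libraries in 1 fit 1197 and 1401, and the replicate block 76 and 20. DESeq2 called 86 lower and a filter of 100 reads over the 4 stasis libraries 91 lower. Leaving out each library gave 17 to 2297 higher and 0 to 2973 lower, with the lone library assumed to vary like the other assay. The highest numbers came without RPF replicate 2 and shared all 241 and 165 calls, and without RPF replicate 1 the number was 67 higher and 0 lower, of which 35 were shared. The replicate block removed the call of 8 named models and added 2.

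Muscle calls (6) were 2 with library totals, 3 with DESeq2, 0 with limma-voom, 1 with at least 10 reads in each library (10 models tested), 1 with the replicate block, 3 without the models over 1% of an RPF library, and 0 to 12 higher and 0 to 1 lower with a library left out. House protein calls (1) were 0 with library totals, limma-voom or at least 10 reads in each library, 4 with all 8 libraries, and 0 to 5 with one left out. Large subunit calls (0) were 2 higher and 4 lower with all 8 libraries, 11 lower with library totals, 1 lower without a filter, and 0 to 2 higher and 0 to 8 lower with a library left out. Small subunit calls (0) were 1 higher with all 8 libraries, 4 lower with library totals, and 0 to 1 higher and 0 to 4 lower with a library left out.

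The median log2 ratio of the large subunit was -1.43 with library totals, -0.88 with at least 10 reads in each library and -0.57 to -0.14 with a library or replicate left out. For the small subunit the values were -1.68, -1.15 and -0.69 to -0.37, and -0.67 without the models over 1%. For muscle they were 0.025, 0.13 and 0.59 to 1.34, and for house proteins -0.05 to 1.53 with a library or replicate left out. Relative to all models, the muscle median stayed above by 0.15 to 1.89 and the house protein median by 0.68 to 1.72 under every alternative run, whereas the large subunit ran from -0.87 to 0.70. Median TE over all models was 0.447 and 0.198 in RPM (replicates 1 and 2), 0.864 and 0.474 in TMM CPM, and 0.875 and 0.483 with a pseudocount of 0.5 CPM. The cause of these differences was not tested.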

Other observations

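Of 15 extracellular matrix models 0 were called higher and 1 lower (6.67%, against 1.13% of all models), with a median log2 ratio of -0.09, against -0.21 for all models. The lower call was a collagen alpha-1 chain precursor (GSOIDT00009792001), with 1018 and 480 total RNA reads and 1 and 1 RPF reads (-4.56 ± 0.92, edgeR adjusted p = 0.035, with the replicate block 0.19). The collagen with the most total RNA (GSOIDT00006599001), at 5403 and 5352 reads, had 130 and 23 RPF reads and ratios of 0.435 and 0.512 (-1.10 ± 0.48, adjusted p = 0.18). Fibronectin, an adhesion protein of the matrix (GSOIDT00005759001), had the highest ratio of the list, 3.57 and 1.62 (1.45 ± 0.54, adjusted p = 0.13).

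Of 37 solute carrier and transporter models none was called by edgeR or DESeq2 (unadjusted p under 0.05 in 4 higher and 4 lower), and the median log2 ratio was -0.10. The amino acid transporter SLC7 member 8 (GSOIDT00012845001), the most abundant, had 2829 and 2237 total RNA reads and 89 and 10 RPF reads, with ratios of 0.569 and 0.532 (-0.83 ± 0.46, edgeR adjusted p = 0.27). A solute carrier family 43 member 3 model (GSOIDT00010024001) had 218 and 237 total RNA reads and 66 and 0 RPF reads, and an ammonium transporter 2 model (GSOIDT00001323001) had 212 and 95 total RNA reads and no RPF read (at least 3.40-fold lower). Of 18 sulfotransferase models, which modify sugar chains, none was called by edgeR or DESeq2. An unadjusted p under 0.05 was found in 0 higher and 2 lower (10.6% and 16.3% of all models), and the median log2 ratio was -0.40. Relative to all models that median ran from -3.54 without RPF replicate 1 to 0.03 without total RNA replicate 1. Carbohydrate sulfotransferase 11 (GSOIDT00012416001) had the most total RNA, 1335 and 1110 reads, with 90 and 9 RPF reads and ratios of 1.22 and 0.966. The lowest was a galactose-3-O-sulfotransferase 1-like model (GSOIDT00006531001), with 89 and 65 total RNA reads and 1 and 0 RPF reads, and the highest a uronyl 2-sulfotransferase-like model (GSOIDT00009019001), with ratios of 1.63 and 0.408.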
